A study of Mus musculus with 6 samples.

Results

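The Wnt ligand genes Wnt3, Wnt4, Wnt5a, Wnt6, Wnt7a, Wnt7b, Wnt9a, Wnt10a, Wnt10b and Wnt11 were examined in dental epithelial organoids (DEOs). These 10 genes were chosen by name and are 10 of the 19 Wnt genes among the 47360 gene symbols of the expression table. DEOs had been grown from epithelial stem cells of the incisor apical bud of female wild-type C57BL/6J mice at 9 weeks of age. They were kept for 14 days in Matrigel in media that all contained Wnt3a-conditioned medium at 50%, R-spondin1-conditioned medium at 5%, EGF at 100 µg/ml and Noggin, an inhibitor of BMP ligands, at 200 µg/ml. The +N medium contained nothing further. The +ND medium also contained dibenzazepine (DBZ) at 10 µM, a γ-secretase inhibitor that blocks the cleavage by which Notch receptors are activated. The +NF medium contained FGF10 at 100 µg/ml in place of DBZ, and the +NFD medium contained both. The doses are those of the sample labels, and the study's methods text gives DBZ in millimolar instead. The comparisons thus ask how the organoids' own Wnt transcripts differed when FGF10 was present, when Notch was inhibited, and when both were done, on a background of added Wnt3a protein in every medium.

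Wnt proteins are secreted, lipid-modified signals that act over short distances. Porcn attaches the lipid in the endoplasmic reticulum and Wls carries the protein to the cell surface. At the receiving cell Wnt proteins bind Frizzled receptors, either with Lrp5 or Lrp6, which stabilises β-catenin and activates genes through TCF/LEF factors, or with Ror and Ryk receptors, which act on cell shape and polarity without β-catenin. In teeth, Wnt ligands are made by the dental epithelium and the mesenchyme, β-catenin signalling is needed for tooth formation, and loss of WNT10A is a cause of missing teeth in people.

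Each medium was represented by 1 RNA-seq library, so no difference between media has a replicate check and no p-value was computed. Values are FPKM, fragment numbers that the authors scaled to transcript length and to library size. The smallest steps between low values put the depth of +N at about 28600000 fragments, and that of +ND at 0.751, of +NF at 0.997 and of +NFD at 0.98 times as much. Intervals given below are 95% exact Poisson intervals on fragment counts worked out from these steps and from transcript length. They are approximate and cover counting error only. Differences between media are log2 ratios of FPKM + 1, which understate the differences of low genes, and a gene was counted as higher or lower at a ratio of at least 2-fold when its FPKM reached 1 in the higher library.

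Markers of epithelium summed to between 10800 FPKM in +ND and 19700 in +N over 7 genes, most of it from the basal keratins Krt5 (4980 to 6580 FPKM) and Krt14 (5530 to 12700 FPKM). Epcam ranged from 54.8 to 218 FPKM. Krt8, a keratin of simple epithelia, was the 1 marker of the 7 below an FPKM of 1 in a library, at 0.574 in +ND against 22.8 in +N. Markers of other cells were also present. A list of 10 fibroblast markers summed to 156 FPKM in +N and 98.1 in +NF, and to 138 in +ND and 396 in +NFD, with none at 0. Of the 10, 9 were at least 2-fold higher in +NFD than in +N, where 5.85% of all genes were. Of these 9, 3 had an FPKM below 1 in +N. Col1a1, Col1a2 and Col3a1, the first genes of that list, were at 74.3, 42.6 and 20.8 FPKM in +N and at 153, 111 and 56.7 FPKM in +NFD. A list of 8 macrophage markers summed to between 444 FPKM in +NFD and 695 FPKM in +N, with none at 0. Ptprc, Csf1r and Adgre1 of that list ranged from 0.383 to 1.01, from 5.15 to 7.19 and from 5.25 to 8.38 FPKM. The 6 endothelial markers summed to 0.146 to 0.326 FPKM, with 1 to 3 of them at 0. The 5 nerve and Schwann cell markers in the table summed to 0.321 to 0.882 FPKM, with Sox10 at 0 in all 4 libraries. The Wnt values are therefore sums over all cells of the cultures, in which fewer cells of a type and less RNA per cell cannot be told apart, and the part of the fibroblast and macrophage transcripts in the Wnt values was not tested.

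Of the 10 ligand genes, Wnt6, Wnt7a and Wnt11 were past 2-fold between +N and +NFD. Their upstream sequences are printed first. The +NFD medium differs from +N by FGF10 as well as DBZ, and Wnt6 did not reach 2-fold in +ND relative to +N (log2 ratio 0.86). Notch acts on genes through the DNA-binding factor RBPJ, whose core was among those searched. A part of Notch or RBPJ in these 3 genes was not tested. Wnt6 (ENSMUSG00000033227) lies on chromosome 1 from 74771892 to 74785322 on the forward strand of GRCm38. Wnt7a (ENSMUSG00000030093) lies on chromosome 6 from 91363981 to 91411363 on the reverse strand. Wnt11 (ENSMUSG00000015957) lies on chromosome 7 from 98835112 to 98855195 on the forward strand. The windows cover bases 250 to 31 before the annotated start, 5′ to 3′ on the strand of the gene, from the RefSeq table on GRCm38.p6. They are chr1:74771642-74771861 on the forward strand for Wnt6, chr6:91411384-91411603 on the reverse strand for Wnt7a and chr7:98834862-98835081 on the forward strand for the first start of Wnt11. Capitals mark a TCF/LEF core.
Wnt6: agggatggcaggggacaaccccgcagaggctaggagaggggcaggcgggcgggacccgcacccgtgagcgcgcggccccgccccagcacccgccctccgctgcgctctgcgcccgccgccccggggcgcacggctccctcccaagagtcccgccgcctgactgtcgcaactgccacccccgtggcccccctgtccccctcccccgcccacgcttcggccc
Wnt7a: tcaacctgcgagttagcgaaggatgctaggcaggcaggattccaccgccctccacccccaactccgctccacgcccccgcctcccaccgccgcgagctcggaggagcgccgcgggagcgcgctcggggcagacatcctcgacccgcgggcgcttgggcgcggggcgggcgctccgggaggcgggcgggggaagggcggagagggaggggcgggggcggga
Wnt11: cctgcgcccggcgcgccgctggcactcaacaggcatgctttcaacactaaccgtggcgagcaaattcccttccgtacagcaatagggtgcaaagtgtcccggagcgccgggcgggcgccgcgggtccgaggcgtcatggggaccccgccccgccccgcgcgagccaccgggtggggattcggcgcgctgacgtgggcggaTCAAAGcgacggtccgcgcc

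All 3 windows were rich in G and C, at 79.1% for Wnt6, 76.8% for Wnt7a and 71.4% for Wnt11, against a median of 51.8% over 32851 promoter windows of the same length. The letters TGGGAA, the core read by RBPJ, were searched on both strands and are in none of the 3 windows, while 19.4% of all windows hold them. The letters CTTTGA, the core read by TCF/LEF factors, occur once in the Wnt11 window on the opposite strand, as TCAAAG, and in 12.6% of all windows. TGANTCA, read by AP-1 factors, is in none of the 3 and in 6.12% of all windows. A second annotated start of Wnt11, with its window at chr7:98838595-98838814, has none of these letters and a GC share of 54.5%. Windows were available for 7 of the 10 ligand genes, and among the other 4 the RBPJ core occurs once each in those of Wnt3 and Wnt9a. The 3 cores do not overlap each other in any of these windows. A match of letters describes the window only, and its absence says nothing of a factor acting elsewhere.

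The 5 most abundant ligand genes made up most of the Wnt transcripts. In +N, Wnt5a was listed at 73.7 FPKM, Wnt10a at 61.8, Wnt7b at 51.1, Wnt4 at 49.7 and Wnt11 at 45.4. Wnt9a at 10.9 and Wnt10b at 5.33 FPKM were intermediate, Wnt6 was at 1.18, and Wnt7a and Wnt3 were close to or at 0. The intervals of neighbours in this order overlapped in +N for Wnt7b with Wnt4 and for Wnt7a with Wnt3. They overlapped in +NF for Wnt11 with Wnt4 and for Wnt7a with Wnt3, in +NFD for Wnt10b with Wnt6, and for no neighbouring pair in +ND. FPKM is per transcript length, so these levels can be set beside each other, within the limits of the authors' choice of transcripts.

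Summed over the 10 ligand genes, FPKM reached 299 in +N and 252 in +NF, and 250 in +ND and 246 in +NFD with DBZ. The FPKM summed over all genes was also highest in +N, at 749264, against 693408 in +NF, 672304 in +ND and 680671 in +NFD. The 10 ligand genes took 99.1% of the FPKM of all 19 Wnt genes in +N, 99.2% in +NF, 95.5% in +ND and 97.9% in +NFD. Within this sum the leading ligand differed between media. Wnt10a, a β-catenin ligand of ectodermal organs, took 20.5% of the Wnt FPKM in +N and 16.5% in +NF but 34.2% in +ND and 28.1% in +NFD, and it ranked first in both media with DBZ. Wnt5a, a ligand known mostly for signalling through Ror2, ranked first in +N at 24.4% and in +NF at 29.1%, and took 24.9% in +ND and 18.2% in +NFD. Wnt11 took 15.0% in +N and 13.5% in +NF, and 2.95% in +ND and 5.2% in +NFD.

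**Figure D1:**
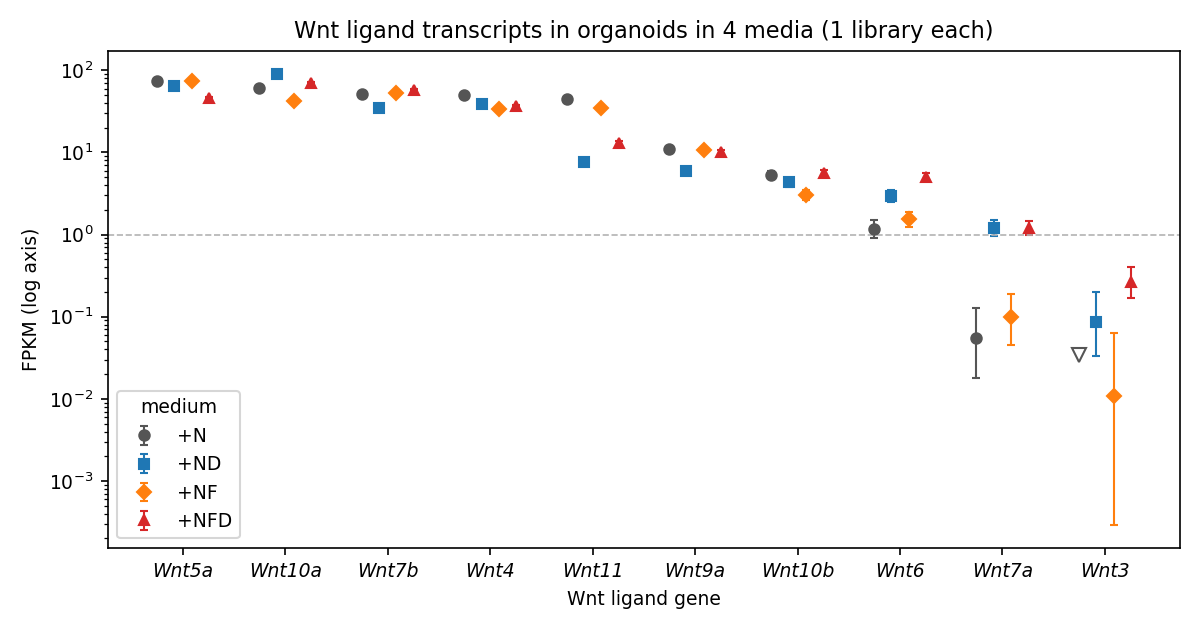
FPKM of the 10 Wnt ligand genes on a log axis in the 4 media, 1 library each, with bars for the approximate 95% counting interval and an open triangle at the value of 3 fragments for Wnt3 in +N, which was listed at 0. Wnt11 is lower in both media with DBZ (7.71 and 13.1 FPKM) than in those without (45.4 and 34.4 FPKM), and Wnt7a and Wnt6 are higher; the dashed line marks an FPKM of 1.

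Wnt11, which guides cell movements and polarity mostly without β-catenin, showed the widest range. Without DBZ its FPKM was 45.4 in +N (44.0 to 46.7) and 34.4 in +NF (33.3 to 35.6), and with DBZ it was 7.71 in +ND (7.09 to 8.37) and 13.1 in +NFD (12.4 to 13.8). Both libraries with DBZ were below both libraries without it. In +ND the FPKM was 0.17 times that in +N (counting interval 0.156 to 0.185, log2 ratio -2.41), and in +NFD it was 0.38 times that in +NF (0.356 to 0.406, log2 ratio -1.33). The ratio of +ND to +N stood at percentile 0.896 of all genes tested, and those of +NFD to +N and of +NFD to +NF at percentile 1.68. With FGF10 the level was lower than in +N when DBZ was absent (log2 ratio -0.39) and higher than in +ND when DBZ was present (0.69). The summed epithelial markers, mostly Krt5 and Krt14, were also lower in the libraries with DBZ. The sum was 10800 FPKM in +ND and 12600 in +NFD against 19700 in +N and 15600 in +NF. Over these libraries in that order, Krt14 was at 5530 and 6090 FPKM against 12700 and 8300. Krt5 differed less, at 4980 and 6180 FPKM against 6580 and 6540. Of the 7 markers, 5 were at least 2-fold lower in +ND than in +N (Epcam, Krt14, Cdh1, Krt8 and Krt18), where 5.29% of all genes were. In +NFD relative to +NF, 3 were lower (Epcam, Krt8 and Krt18), where 2.69% of all genes were. In +ND and +NFD, Cdh1 was at 68.0 and 74.7 FPKM, against 163 in +N and 120 in +NF. Krt8 was at 0.574 and 5.95 against 22.8 and 86.0, and Krt18 at 9.9 and 63.2 against 76.7 and 241. Trp63 was instead higher with DBZ, at 166 FPKM in +ND and 124 in +NFD against 88.5 in +N and 100 in +NF. The part of these markers in the Wnt11 values was not tested.

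Wnt7a, a ligand of epithelia and of the limb ectoderm, rested on few fragments without DBZ. It was at 0.0556 FPKM in +N and 0.0983 in +NF, which corresponds to about 5 and 9 fragments, and at 1.22 FPKM in +ND and 1.21 in +NFD, or about 83 and 108 fragments. Both libraries with DBZ were above both without it and did not differ from each other beyond counting error, with an FPKM ratio of +NFD to +ND of 0.994 (0.742 to 1.34). Relative to +N the FPKM ratio was 21.9 for +ND (9.1 to 69.9) and 21.8 for +NFD (9.16 to 69.2), and relative to +NF it was 12.3 for +NFD (6.2 to 27.4). On the scale of FPKM + 1 these were log2 ratios of 1.07, 1.07 and 1.01, just past the 2-fold line. With DBZ the gene was still among the lowest expressed ones, at percentile 2.64 in +ND and 2.77 in +NFD of genes with an FPKM of at least 1.

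Wnt6, a β-catenin ligand of surface and dental epithelia, was at 1.18 FPKM in +N (0.922 to 1.49) and 1.53 in +NF (1.23 to 1.87), and at 2.97 in +ND (2.49 to 3.52) and 5.07 in +NFD (4.51 to 5.68). Intervals of the libraries without DBZ overlapped, and those of the libraries with DBZ lay above both. The FPKM in +NFD was 4.28 times that in +N (3.29 to 5.64, log2 ratio of FPKM + 1 of 1.48) and 3.32 times that in +NF (2.62 to 4.26, log2 ratio 1.26). In +ND it was 2.51 times that in +N (1.87 to 3.4), but the log2 ratio of FPKM + 1 was 0.86 and did not reach 2-fold. Wnt6 had its highest level with both agents, at 1.71 times the FPKM in +ND (1.38 to 2.11).

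Wnt3, a β-catenin ligand, never reached an FPKM of 1 and was left out of the 2-fold counts. It was listed at 0 in +N and at 0.0107 FPKM in +NF, from about 1 fragment, and at 0.0859 FPKM in +ND and 0.262 in +NFD, from about 6 and 23 fragments. Taking 3 fragments as the limit that a value of 0 allows, which is 0.0341 FPKM in +N, the FPKM of Wnt3 was 7.66 times that limit in +NFD and 2.52 times in +ND. The lower ends of the 95% counting intervals of the ratio to +N were 5.86 and 1.57. The library with both agents was thus the highest, and the 3 others held about 6 fragments or fewer.

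Wnt10a was higher with DBZ than without it at either state of FGF10, without reaching 2-fold. Its FPKM was 61.8 in +N against 89.4 in +ND, and 42.0 in +NF against 70.7 in +NFD. The FPKM ratio was 1.45 for +ND to +N (1.39 to 1.51) and 1.68 for +NFD to +NF (1.61 to 1.76). With FGF10 it was 0.68 times the level in +N (0.649 to 0.713) and, with DBZ present, 0.79 times that in +ND (0.759 to 0.823). Wnt10b, its close relative, did not follow it. It was at 5.33 FPKM in +N against 4.37 in +ND, and at 3.04 in +NF against 5.55 in +NFD, with +NF the lowest library. The FPKM ratio to +N was 0.821 for +ND (0.698 to 0.96) and 1.04 for +NFD (0.906 to 1.19).

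Wnt7b, a β-catenin ligand of oral ectoderm and skin, was listed at 51.1, 34.5, 52.9 and 57.2 FPKM in +N, +ND, +NF and +NFD. Wnt9a stood at 10.9, 6.0, 10.7 and 10.1 FPKM over these libraries. Both were lowest in +ND and within a narrow range in the other 3 libraries, with an FPKM in +ND that was 0.675 (0.643 to 0.708) and 0.55 (0.491 to 0.617) times that in +N. Neither passed 2-fold in any comparison.

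Wnt4, a ligand of epithelial organs that can act with or without β-catenin, was at 49.7 FPKM in +N and 33.6 in +NF without DBZ, and at 38.6 in +ND and 37.1 in +NFD with it. It was highest in +N, and the other 3 libraries lay within a narrow range. Wnt5a was at 73.7 FPKM in +N and 73.9 in +NF, and at 65.1 in +ND and 45.8 in +NFD. Its level in +NF did not differ from that in +N beyond counting error (FPKM ratio 1.0, 0.98 to 1.03), and the library with both agents was the lowest, at 0.622 times +N (0.605 to 0.638) and 0.62 times +NF (0.604 to 0.636).

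Counted over comparisons, few ligand genes passed 2-fold. In +ND relative to +N, 1 of 9 ligand genes that passed the filter was higher (Wnt7a) and 1 was lower (Wnt11), where 5.88% of all 13173 genes tested were higher and 5.29% lower. In +NF relative to +N, 0 of 8 were higher and 0 lower, where 2.76% of 13090 genes were higher and 2.44% lower. In +NFD relative to +N, 2 of 9 were higher (Wnt6 and Wnt7a) and 1 was lower (Wnt11), where 5.85% of 13358 genes were higher and 4.03% lower. In +NFD relative to +NF, the same 2 were higher and the same 1 lower, where 3.72% of 13349 genes were higher and 2.69% lower. In +NFD relative to +ND, 0 of 9 passed in either direction, where 3.39% of 13293 genes were higher and 3.11% lower. With so few ligand genes, 1 gene is a larger share than any of these percentages, and the counts describe single genes and not the family. Wnt7a passed the filter only through the libraries in which it was high.

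The median log2 ratio of the ligand genes was -0.24 in +ND, -0.21 in +NF and 0.05 in +NFD, each relative to +N, beside 0.10, 0.12 and 0.18 over all genes tested. It was 0.14 in +NFD relative to +NF and 0.28 in +NFD relative to +ND, beside 0.05 and 0.09. When ratios were centred on the median of all genes, 4.67% of genes were higher and 6.39% lower in +ND relative to +N, 1.89% and 3.15% in +NF, 4.04% and 5.35% in +NFD, and 2.6% and 3.81% in +NFD relative to +ND. With upper-quartile scaling the shares were 1.98% and 3.12% in +NF and 4.58% and 5.09% in +NFD, each relative to +N. Rescaled to TPM, they were 9.08% and 4.81% in +ND, 4.48% and 2.37% in +NF and 8.66% and 3.73% in +NFD. Wnt11 was at least 2-fold lower in the same 3 comparisons under these scalings. Wnt7a passed 2-fold after TPM rescaling and did not after centring, and after upper-quartile scaling it did not pass in +NFD relative to +NF.

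Of these comparisons 3 share the +N library and 3 share the +NFD library, so their values are not independent. The ratio of DBZ can be read from separate pairs of libraries, in +ND relative to +N and in +NFD relative to +NF. Wnt7a was at least 2-fold higher and Wnt11 at least 2-fold lower in both, 1 of 9 ligand genes in each direction, where 1.84% of 12774 genes were higher in both and 2.13% were lower in both. The log2 ratios of DBZ without and with FGF10 were 0.86 and 1.26 for Wnt6, 0.53 and 0.74 for Wnt10a and -0.18 and -0.68 for Wnt5a. They were -0.36 and 0.14 for Wnt4, -0.55 and 0.11 for Wnt7b and -0.24 and 0.70 for Wnt10b, which differed in sign. The difference between the 2 settings has no replicate and was not tested.

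**Figure D2:**
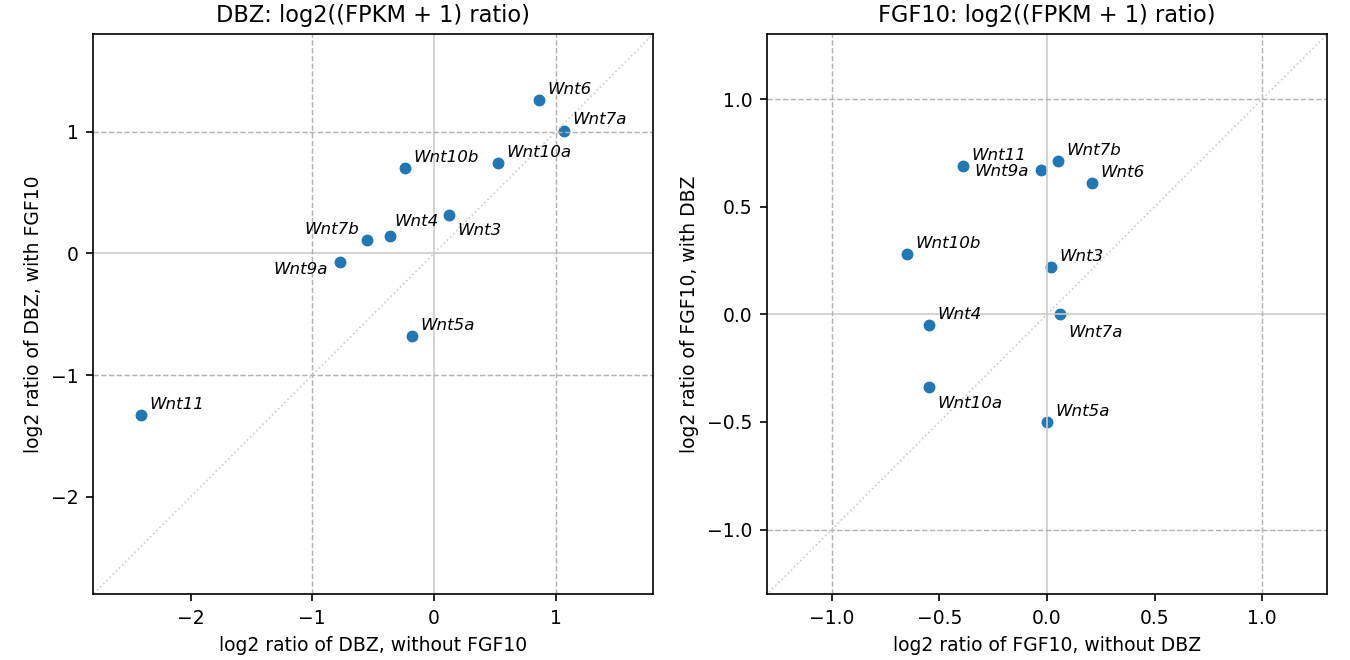
Log2 ratios of FPKM + 1 for the Wnt ligand genes: left, DBZ without FGF10 (+ND over +N, horizontal) against DBZ with FGF10 (+NFD over +NF, vertical); right, FGF10 without DBZ (+NF over +N) against FGF10 with DBZ (+NFD over +ND). Dashed lines mark 2-fold and the dotted line equal ratios; Wnt11 is at -2.41 and -1.33 and Wnt7a at 1.07 and 1.01 in the left plot, and no gene is past 2-fold in the right plot.

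The other 9 Wnt genes summed to 2.68 FPKM in +N and 2.04 in +NF, and to 11.6 in +ND and 5.26 in +NFD. In +ND, Wnt3a was above Wnt9a, which was at 6.0 FPKM. Wnt3a, whose protein was also supplied in every medium, was at 1.1 FPKM in +N and 0.47 in +NF, and at 6.84 in +ND and 3.52 in +NFD. Its own transcript was thus higher in both libraries with DBZ. The log2 ratio of Wnt3a was 1.90 in +ND relative to +N and 1.62 in +NFD relative to +NF. In +NFD relative to +N it was 1.11, also past 2-fold. Wnt16 was at 0.452, 4.12, 0.289 and 0.609 FPKM, highest in +ND alone, with a log2 ratio to +N of 1.82 in +ND and 0.15 in +NFD. Wnt5b was at 1.02, 0.544, 1.1 and 0.85 FPKM, and Wnt2b did not exceed 0.287 FPKM. Wnt2 and Wnt9b were listed at 0 in all 4 libraries, and Wnt1, Wnt8a and Wnt8b rested on at most 3 fragments in any library.

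**Figure D3:**
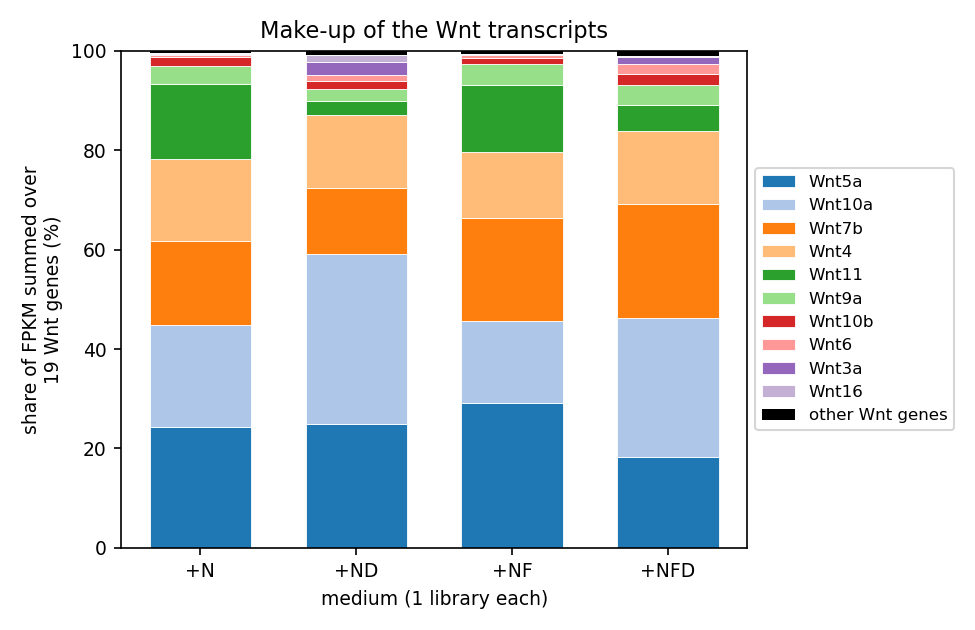
Share of each Wnt gene in the FPKM summed over 19 Wnt genes, in percent, for the library of each medium. Wnt10a takes 34.2% in +ND and 28.1% in +NFD against 20.5% in +N and 16.5% in +NF, and Wnt11 takes 2.95% and 5.2% against 15.0% and 13.5%.

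Several of the ligand genes lie beside another Wnt gene, and the values of these pairs are set side by side here. Wnt6 and Wnt10a lie on the same strand of chromosome 1, 6193 bp apart with no listed gene between them. Their log2 ratios relative to +N were 0.86 and 0.53 in +ND, 0.21 and -0.55 in +NF and 1.48 and 0.19 in +NFD. In +NFD relative to +NF both were higher, at 1.26 for Wnt6 and 0.74 for Wnt10a. Wnt10a was the more abundant in every library. Wnt9a and Wnt3a lie 16175 bp apart on opposite strands of chromosome 11. In +ND relative to +N, Wnt9a was lower (-0.77) and Wnt3a higher (1.90). Wnt10b on chromosome 15 lies 11706 bp from Wnt1, and Wnt3 on chromosome 11 lies 24328 bp from Wnt9b. Wnt1 and Wnt9b were at or near 0 while Wnt10b was at 3.04 FPKM or more. Wnt3 was also low, at 0.262 FPKM or less.

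The other ligand genes are on chromosome 4 from 137277489 to 137299726 (Wnt4), chromosome 14 from 28504750 to 28527447 (Wnt5a) and chromosome 15 from 85535439 to 85581821 (Wnt7b). Wnt10a is on chromosome 1 from 74791516 to 74804179, Wnt10b on chromosome 15 from 98771753 to 98778150, and Wnt3 and Wnt9a on chromosome 11 from 103774150 to 103817957 and from 59306928 to 59333552. Genes on the opposite strand overlap Wnt5a (Gm2670, up to 1.58 FPKM), Wnt6 (Gm29539, up to 0.195), Wnt7b (AU022754, up to 0.501) and Wnt11 (Gm8398, up to 0.376). The strand setting of the counting is not given in the sources used here, so fragments of these overlaps cannot be told apart, but all of the overlapping genes were listed below the Wnt gene in each library.

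The genes whose pattern over the 4 libraries was closest were sought for the 4 ligand genes with a range of at least 2-fold, among 12173 genes, by the distance between log2(FPKM + 1) values after centring each gene on its mean. For Wnt11 they were Cxcl5, a chemokine that attracts neutrophils, at 1960, 361, 1390 and 567 FPKM (distance 0.08), and Krt19, a keratin of simple epithelia, at 10.6, 1.03, 6.95 and 2.09 FPKM (0.14). For Wnt6 they were Pcsk6, a protease that activates secreted growth factors, at 4.42, 8.77, 5.41 and 13.5 FPKM (0.065), and Rarres1 (0.074). For Wnt7a they were Itih5 (0.054) and Itgbl1 (0.07), both at about 1.14 to 1.22 FPKM with DBZ and below 0.1 FPKM without it. For Wnt10a they were S100a3 (0.086) and Cbr3 (0.099). Other genes had similar patterns. Of the 12173 genes, 46 lay within a distance of 0.5 of Wnt11, 151 of Wnt6, 289 of Wnt7a and 558 of Wnt10a, and 4 libraries give little to tell them apart.

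The machinery for making Wnt proteins was expressed in all 4 media. Porcn was at 79.5, 45.3, 139 and 121 FPKM in +N, +ND, +NF and +NFD, and Wls at 125, 95.7, 152 and 142 FPKM, so both were lowest in +ND. None of the 9 genes of acylation and secretion was 2-fold different from +N in any medium. Of all genes 5.88% were higher and 5.29% lower in +ND, 2.76% and 2.44% in +NF, and 5.85% and 4.03% in +NFD. With so few genes a count of 0 is near these shares. Of the 5 comparisons, Porcn passed 2-fold in +NFD relative to +ND alone, with a log2 ratio of 1.39. It was the 1 gene of the 9 that was higher there, where 3.39% of all genes were.

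Among receptors and co-receptors, 1 of 14 genes tested was at least 2-fold higher in +NFD than in +N and 0 were lower, a share near the 5.85% and 4.03% of all genes. The gene was Ror2, the receptor through which Wnt5a is best known to act, at 3.68, 4.25, 7.93 and 9.39 FPKM, with a log2 ratio of 1.15. Wnt5a itself was lowest in +NFD. In +NF relative to +N, 1 of 14 was higher, where 2.76% of all genes were, and it was Fzd7 at 17.5 and 45.5 FPKM. In +ND relative to +N, 0 of 13 were higher and 1 was lower, where 5.29% of all genes were lower, and it was Fzd4 at 6.61 and 1.72 FPKM. Of 14 planar polarity and non-canonical genes tested in +ND relative to +N, 1 was lower (Prickle2, 4.37 and 1.54 FPKM). Of all genes 5.29% were lower there. None of the 14 in +NF or the 15 in +NFD passed 2-fold. Of all genes 2.76% were higher and 2.44% lower in +NF, and 5.85% and 4.03% in +NFD. With so few genes these counts are near those shares.

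Several genes listed as inhibitors of Wnt signalling were higher in the media with added agents. Whether each listed gene, Dkk3 included, inhibits Wnt in these cells was not tested. In +NFD relative to +N, 4 of 9 secreted and surface inhibitors tested were at least 2-fold higher and 0 were lower, where 5.85% of all genes were higher and 4.03% lower. Of the 9, 2 had an FPKM below 1 in +N and so entered through +NFD, and neither was among the 4. The 4 were Sostdc1, an inhibitor of BMP and Wnt known from teeth, at 8.33 FPKM in +N and 62.7 in +NFD (2.77), Apcdd1, a surface inhibitor, at 1.41 and 15.5 FPKM (2.78), Dkk3 at 5.01 and 13.4 FPKM (1.26), and Wif1, which binds Wnt proteins outside the cell, at 20.7 and 44.6 FPKM (1.07). The counts were 3 of 8 in +ND (Sfrp1, Sostdc1 and Apcdd1) and 2 of 7 in +NF (Dkk3 and Sostdc1), with 0 lower in both, where 5.88% and 2.76% of all genes were higher. Sfrp1 entered the count only through +ND, at 4.44 FPKM against 0.27 in +N. Sostdc1 was at 42.1 FPKM in +ND and 43.0 in +NF, above +N with either agent alone. Apcdd1 was at 7.82 FPKM in +ND and 1.9 in +NF, near its level in +N without DBZ.

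Among cytoplasmic and nuclear transducers, 2 of 26 were at least 2-fold higher in +NFD than in +N and 0 were lower, a share near the 5.85% and 4.03% of all genes. These were Dvl2, which relays the Frizzled signal, at 6.42 and 14.2 FPKM (1.03), and Tcf7, a TCF factor, at 3.89, 6.66, 17.3 and 14.1 FPKM in +N, +ND, +NF and +NFD (1.63). Tcf7 alone of 25 was higher in +NF, where 2.76% of all genes were. In +ND, 0 of 26 passed in either direction, where 5.88% of all genes were higher and 5.29% lower.

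Of genes often described as β-catenin targets, 2 of 14 were higher in +ND, 5 of 15 in +NF and 7 of 17 in +NFD, each relative to +N, and 0 were lower. Over all genes 5.88%, 2.76% and 5.85% were higher in these comparisons. The 7 in +NFD were Tnfrsf19, a receptor of stem cell compartments, at 2.45, 7.87, 22.8 and 13.4 FPKM over +N, +ND, +NF and +NFD (log2 ratio 2.07), Tcf7 and Wif1 as above, Bmp4 at 5.04 and 15.9 FPKM in +N and +NFD (1.48), Ascl2 at 0.247 and 1.86 (1.20), Sp5 at 0.024 and 1.33 (1.19) and Lgr5 at 0.0307 and 1.1 (1.02). Ascl2, Sp5 and Lgr5 were below an FPKM of 1 in +N and passed the filter only through the libraries in which they were high, so they could be counted only as higher, as could Sp5 and Lgr5 among the 5 in +NF. Sp5 and Lgr5 were also at 2.22 and 2.07 FPKM in +NF, and at 0.0312 and 0 in +ND. Axin2, the target most widely used as a reporter of β-catenin, was at 12.1, 13.2, 11.6 and 13.9 FPKM, with no ratio to +N above 0.19 on the log2 scale. This list and that of inhibitors share Wif1, Notum and Dkk1, and the list of transducers shares Tcf7 and Lef1 with it, so the counts are not independent.

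Of R-spondins and their receptors, 2 of 7 tested were higher in +NFD than in +N and 0 were lower, where 5.85% of all genes were higher. Both passed the filter only through the libraries in which they were high, and Lgr5 is already counted among the targets. Rspo4, a secreted amplifier of Wnt signalling, was at 0.016, 0.434, 0.0784 and 3.84 FPKM in +N, +ND, +NF and +NFD (2.25), and Lgr5 was the other. Lgr6, an R-spondin receptor of skin, was at 52.0, 19.2, 40.0 and 27.9 FPKM. It was the 1 gene of 4 tested that passed 2-fold in +ND relative to +N. It was lower there (-1.39), as were 5.29% of all genes. The fibroblast marker sum was also highest in +NFD, at 396 FPKM against 156 in +N, and the part of these cells in the higher values of Wnt6, Wnt7a, Wnt3, Rspo4, Dkk3, Apcdd1 and Wif1 in +NFD was not tested. In +ND the sum, carried by collagens, was 138 FPKM, while Prrx1 of the same list was at 8.46 FPKM against 2.08 in +N and Pdgfrb at 2.79 against 1.3.

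**Figure D4:**
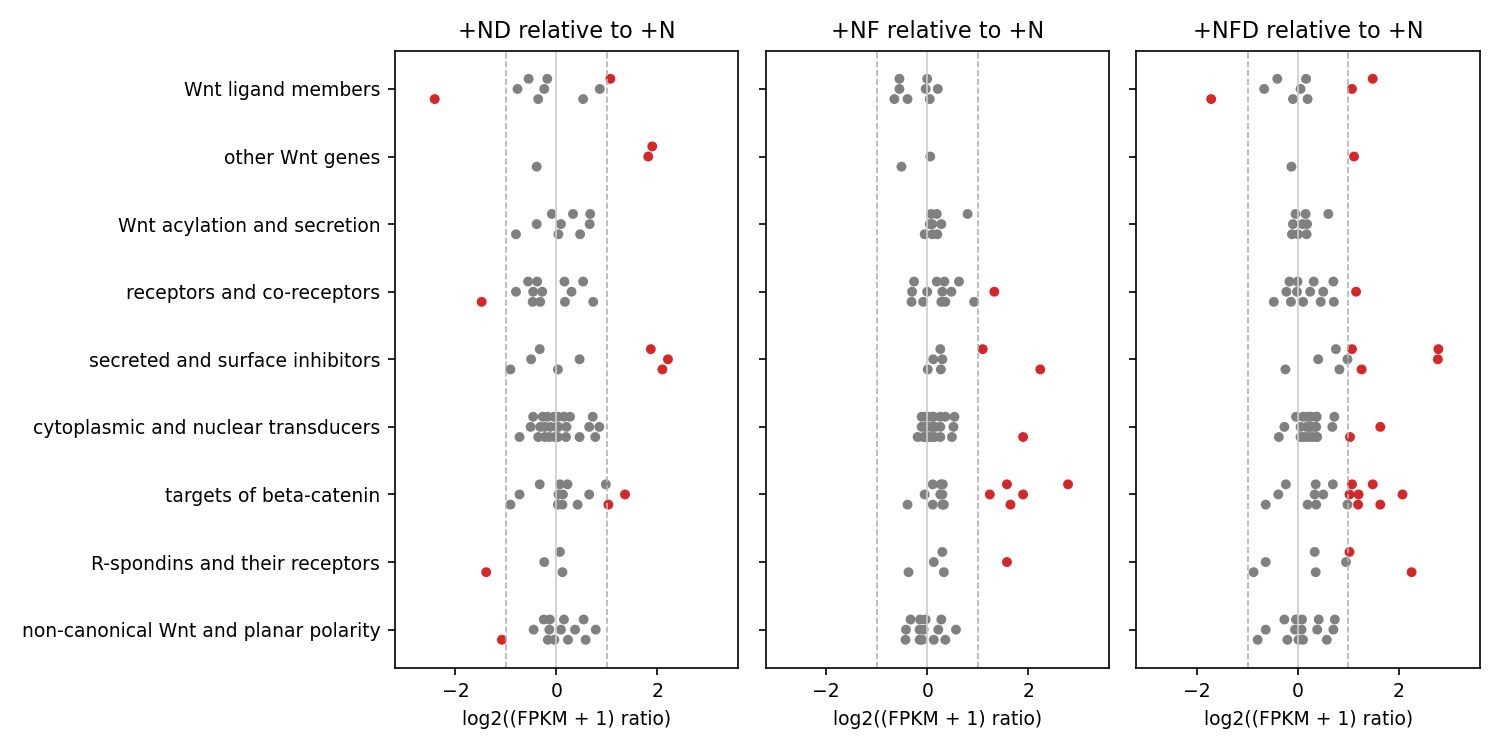
Log2 ratios of FPKM + 1 relative to +N for Wnt ligand genes and lists of Wnt pathway genes in +ND, +NF and +NFD, with 1 point for each gene whose FPKM reached 1 in the higher library. Red points lie past 2-fold (dashed lines); the inhibitors with 4 of 9 and the β-catenin targets with 7 of 17 in +NFD have red points only on the right, 3 of those targets from an FPKM below 1 in +N, while the ligand genes have 2 to the right and 1, Wnt11, to the left.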

How the data were processed

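RNA had been made into TruSeq libraries and sequenced on an Illumina HiSeq, each medium giving 1 library. The labels list 6 media, of which +NJ and +NFJ were not analysed here. The authors checked reads with FastQC 0.11.9, trimmed reads with Trim Galore 0.6.5, used TopHat2 2.1.1 for alignment to GRCm38, and estimated and deposited FPKM values with Cufflinks. The annotation release and strand setting are not given in the sources used here. FPKM divides by transcript length and library size, so a few abundant genes lower all others in a library.

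FPKM was summed over entries that share a symbol, which concerned 123 symbols. Ratios were computed as log2((FPKM + 1)/(FPKM + 1)), with a filter at an FPKM of 1 in the higher library and a 2-fold limit. Fragment numbers were worked out from the steps between the values of 8367 genes with a single transcript of at least 1000 nt, with lengths and positions from GENCODE M21, in which 46994 identifiers were found. All 10 ligand genes are named, other genes if past 2-fold in +NFD relative to +N, if Porcn or Wls, or if a marker, neighbour or nearest pattern. Fzd7, Fzd4, Prickle2, Lgr6, Sfrp1, Axin2, Wnt16, Wnt5b and Wnt2b and the low Wnt genes were named after their values were seen. The ligand genes and lists were chosen with earlier results of these data known. Apcdd1l and Tubb3 of the lists were not used here. A further epithelial marker is not reported here and was left out of the sums. The alternatives were a pseudocount of 0.1 or none, no filter or one at an FPKM of 5, upper-quartile scaling, centring on the median ratio, TPM, and the highest entry per symbol. Scripts were tested on simulated data. The software was Python 3.11.15 with scipy 1.17.1, pandas 2.3.3, matplotlib 3.10.9 and numpy 2.4.6.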

Additional observations from a re-analysis of the deposited data

Results flagged for a closer look

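The ratio of an agent had opposite signs, beyond counting error, with and without the other agent for 4 ligand genes. For DBZ, the log2 ratio with FGF10 minus that without it was 0.5 for Wnt4 (0.14 against -0.36), 0.67 for Wnt7b (0.11 against -0.55) and 0.93 for Wnt10b (0.70 against -0.24). For FGF10, the log2 ratio with DBZ minus that without it was 0.93 for Wnt10b (0.28 against -0.65) and 1.08 for Wnt11 (0.69 against -0.39). Each value compares 4 single libraries, and the differences were not tested.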

How the results depend on the processing

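Of 80 counts of ligand genes past 2-fold under 8 alternatives, 70 stayed within 1.5 times the reported count. The other 10 were all counts of genes that were higher. In +ND relative to +N, where 1 was counted (Wnt7a), the count was 2 with a pseudocount of 0.1, with none and with TPM (Wnt6 and Wnt7a), and 0 with the filter set at FPKM 5 or with ratios centred. In +NFD relative to +N, where 2 were counted, it was 1 with the filter at 5 and with centred ratios (Wnt6). In +NFD relative to +NF, where 2 were counted, it was 1 with the filter at 5, after centring and after upper-quartile scaling (Wnt6). The filter at 5 removes Wnt7a by construction. The highest entry per symbol could change no count, since each ligand gene has 1 entry. Leaving out the filter could change none either. With a pseudocount of 1, a gene below an FPKM of 1 in both libraries cannot reach 2-fold. In +NF relative to +N and in +NFD relative to +ND the counts were 0 as reported and stayed at 0 under every alternative. Over the alternatives the log2 ratio of Wnt11 ranged from -2.56 to -2.30 in +ND relative to +N, from -1.90 to -1.61 in +NFD relative to +N and from -1.39 to -1.32 in +NFD relative to +NF. That of Wnt6 ranged from 1.3 to 2.1 in +NFD relative to +N. That of Wnt7a ranged from 0.89 to 4.45 in the same comparison, so its size rests on the pseudocount. Small ratios crossed 0 with the scaling in +NF relative to +N for Wnt5a (-0.12 to 0.12), Wnt7b (-0.08 to 0.16) and Wnt9a (-0.15 to 0.08), and in +NFD relative to +N for Wnt7b (-0.02 to 0.30), Wnt9a (-0.28 to 0.03) and Wnt10b (-0.13 to 0.17). Depth limits Wnt3 and Wnt7a, which rest on few fragments without DBZ. No paired analysis was possible because each medium has 1 library.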
